A study of Sardinops sagax and Scomber japonicus with 20 samples.

Results

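Translation factors and poly(A) binding proteins were followed in the liver of the chub mackerel, Scomber japonicus, and of the Pacific sardine, Sardinops sagax. The members were all rows whose human gene symbol begins with EIF, EEF or PABP or equals ETF1, GSPT1 or TPT1, without the EIF2AK kinases. They made up 75 of 6716 sardine rows (49 symbols) and 75 of 9191 mackerel rows (56 symbols), with 42 symbols in both tables and 63 in either. In each species 5 adult males were kept for 5 h with 12.5 pM of the synthetic estrogen 17α-ethynylestradiol (EE2) and 5 adult males without it served as controls. All fish were live bait held in flow-through seawater and fed pellets, and the labels name no tank. In the recovery of reads described below, only the sardine positive side showed separate libraries. The p-values can measure a spread between libraries only there. Liver RNA was sequenced, and 1 table per species gives the authors' DESeq2 comparison of both groups. Neither table says which group stands in the numerator of the fold change. Genes are therefore given by side, positive or negative, without naming the exposed group.

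Initiation factors bring the initiator tRNA, the small ribosomal subunit and the capped end of an mRNA together and find the start codon. Elongation factors then deliver each aminoacyl-tRNA and move the ribosome on, and release factors free the finished protein at a stop codon. Cytoplasmic poly(A) binding proteins coat the mRNA tail, contact eIF4G at the cap and help to protect the message. Hepatocytes make large amounts of secreted blood proteins and so depend on this machinery.

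Whole read numbers were recovered from the deposited means. For a mackerel row they are 1 whole number per side. Over all rows these came to 376343 reads for the positive side against 332486 for the negative, at a median of 4 per row. Whether the number is a sum over the 5 fish of a side could not be worked out. For a sardine row the positive side consists of 5 libraries and the negative side of a single number, so its values are given as levels, in normalized reads on a scale where the mean of both levels is the deposited mean. The single number means that the sardine SE holds no spread between the 5 fish of the negative side. In mackerel each side was 1 number, and all rows with the same pair of read numbers shared 1 fold change. The mackerel values therefore show no spread between the fish of either side. The sardine sides also differed in markers of cell types. Of 36 striated muscle rows 31 were called negative and 1 positive, with a summed level of 33.3 for the positive side against 10018 for the negative, and 10 of these rows, among them DES, MYL4, MYL7, TNNC1 and TNNI1, were at 0 on the positive side. Of 11 hepatocyte rows 10 were called positive and 0 negative (41766 against 8829). The part of these differences in the values below was not tested, and in bulk RNA fewer cells of a type cannot be told apart from less RNA per cell. In mackerel 19 muscle rows gave 1 positive and 2 negative calls at summed levels of 23.7 and 54.0, and 13 hepatocyte rows 1 and 4 (42467 against 59979). Erythrocyte markers gave 2 positive and 3 negative calls in 8 sardine rows and 0 and 2 in 5 mackerel rows, and leukocyte markers 1 and 2 in 6 sardine rows and 0 and 1 in 6 mackerel rows.

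In the sardine, the side on which translation factor rows were called went with the kind of row, as it did over the whole table. Rows were called at an adjusted p under 0.05, as the authors' deposited table gives it. Of the 73 member rows with an adjusted p, 26 were called on the positive side, against 30.5% of all tested rows, and 20 on the negative side, against 16.1%. Of the 26 positive calls, 24 rested on rows without a negative-side read, and 15 of the 26 were transcript records predicted from the zebrafish genome. Negative-side reads were missing in all 16 predicted member rows and in 11 of the 59 curated ones (18.6%). Over the whole table they were missing in 1821 of 2199 predicted rows (82.8%) and in 892 of 4517 curated ones (19.7%). Among the 48 rows with reads on both sides, 2 were called positive and 20 negative at a median log2 fold change of -0.59. All 3196 sardine rows with reads on both sides had a median of -1.21, with 13.2% positive and 24.4% negative. With a mean of at least 10 as well, 1 of 31 member rows was called positive and 14 negative (45.2%), against 36.9% positive and 37.1% negative of all such rows. The members took 3.49% of the summed positive-side level and 8.82% of that of the negative side. Their own summed level was 7527 for the positive side against 9793 for the negative, and that of all rows 215765 against 110984.

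**Figure D1:**
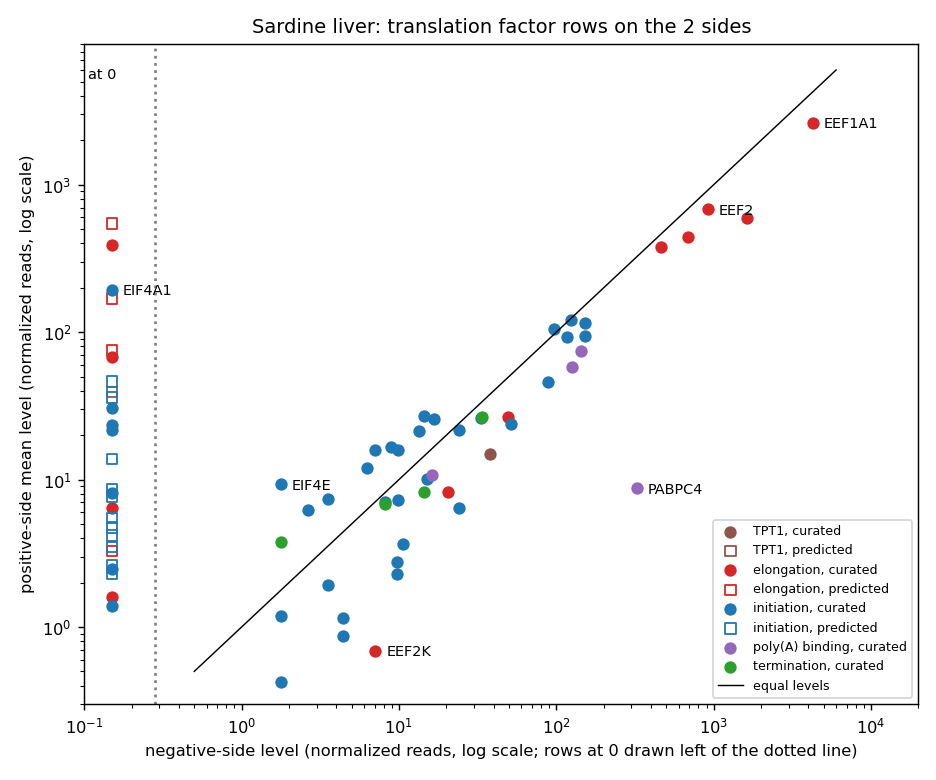
Level of each sardine member row on the negative side (x axis) and the positive side (y axis), in normalized reads on log scales. Filled circles are curated records, open squares predicted ones, colours give the class, and the line marks equal levels. The 27 rows at 0 on the negative side stand left of the dotted line, and PABPC4 lies far below the line at 8.73 against 323.

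Initiation factors made up 49 sardine rows, of which 19 were called positive and 9 negative, against 30.5% and 16.1% of all tested sardine rows. Of the 19 positive calls, 17 rested on rows without a negative-side read. The 31 rows with reads on both sides gave 2 positive and 9 negative calls, against 13.2% and 24.4% of all such rows. The 31 rows had a median of -0.35 and include 4 rows of repressors, given below, all called negative. The row with the highest mean was EIF2S3, the gamma subunit of eIF2, which carries the initiator tRNA. It stood at 114 for the positive side against 153 for the negative, which the authors' deposited table gives as a log2 fold change of -0.42 ± 0.16 (SE) with an adjusted p of 0.0317. EIF2S1 and EIF2S2, the other subunits of eIF2, leaned the other way without a call. The 2 EIF2S1 rows had levels of 25.7 against 16.7 (0.62 ± 0.31 in the authors' deposited table, adjusted p 0.0877) and 15.9 against 9.88, and EIF2S2 had 26.9 against 14.3 (0.91 ± 0.44, 0.0806).

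The eIF2B complex, which reloads eIF2 with GTP, had 6 sardine rows. The complex gave 3 positive calls and 1 negative, against 30.5% and 16.1% of all tested sardine rows. EIF2B2, its beta subunit, stood at 15.9 against 7.07 and was the only member row with a mean of at least 10 and reads on both sides that was called positive (1.17 ± 0.43 in the authors' deposited table, adjusted p 0.0236). EIF2B5, the catalytic epsilon subunit, had rows called on both sides. Its curated row had 2, 5, 4, 2 and 0 reads in the 5 positive-side libraries and 11 on the negative side (-1.78 ± 0.56 in the authors' deposited table, adjusted p 0.00794). Its predicted row had 6, 5, 1, 2 and 3 reads against 0, a positive-side level at least 1.31-fold higher. This bound and those below use a floor of 3 reads over the empty negative side, and higher in them means on the positive side. They hold only if the libraries of both sides were counted against 1 set of transcripts, which is not shown. Of all sardine rows with a mean of at least 10, 87.7% of predicted and 7.72% of curated ones were at 0 there. Summed over both rows, EIF2B5 had a level of 6.25 against 9.74. The alpha subunit EIF2B1 had a curated row with 12, 13, 6, 4 and 2 reads against 4 (by the authors' deposited table its adjusted p was 0.0877) and a predicted row with 6, 5, 4, 6 and 1 against 0, which was called.

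Of 14 rows for eIF3, the scaffold of the small subunit, 7 were called positive and 2 negative in the sardine. Over all tested sardine rows the shares were 30.5% and 16.1%. All 7 positive rows were at 0 on the negative side, and 6 of them were predicted records. EIF3B, a core subunit that binds RNA, had 2 rows, both predicted. The first stood at 46.3 against 0, at least 17.4-fold higher, and the second had 2, 2, 7, 6 and 5 reads against 0. EIF3L stood at 36.1 against 0 (at least 13.6-fold higher) and the curated EIF3H row at 21.6 against 0 (at least 8.12-fold higher). The negative calls were EIF3C, another core subunit, at 6.43 against 24.0 (-1.90 ± 0.39 in the authors' deposited table, adjusted p 3.02e-05), and EIF3G, which binds RNA, at 45.9 against 88.7 (-0.95 ± 0.21, 1.66e-04). Other well-read subunits lay between these. EIF3M stood at 122 against 123 and EIF3I at 105 against 96.5, while EIF3D, which can bind the cap, stood at 94.8 against 152, with an adjusted p of 0.0599 by the authors' deposited table.

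The cap-binding complex eIF4F and its partners gave 8 positive calls and 1 negative in 16 sardine rows. Of all tested sardine rows 30.5% were called positive and 16.1% negative. Among the 8 positive rows, 7 were at 0 on the negative side. EIF4A1, the RNA helicase of the complex, had its only row at 193 against 0, at least 72.8-fold higher (by the authors' deposited table its adjusted p was 1.7e-07). EIF4A2, its close paralogue, went the other way at 23.7 against 51.5 (-1.12 ± 0.26 in the authors' deposited table, adjusted p 3.27e-04). The coding sequences of both helicases are much alike, so how reads were split between them is uncertain. EIF4E, which binds the cap, was called positive in both of its rows. One stood at 23.3 against 0 (at least 8.79-fold higher), and the other had 16, 8, 9, 8 and 3 reads in the positive-side libraries and 2 on the negative side (2.39 ± 0.63 in the authors' deposited table, adjusted p 0.00143). Its relative EIF4E2 had 8, 1, 8, 12 and 5 reads against 0 in one row (at least 3.05-fold higher) and a level of 12 against 6.31 in the other, which was not called. EIF4H, which stimulates the helicase, stood at 30.7 against 0, at least 11.5-fold higher. The scaffold EIF4G1 stood at 21.8 against 24.0 in its curated row (by the authors' deposited table its adjusted p was 0.759) and at 13.8 against 0 in its predicted row.

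Repressors of the cap-binding protein were all higher on the negative side in the sardine, although on few reads. The eIF4E-binding proteins EIF4EBP2 (2 rows) and EIF4EBP3 and the eIF4E transporter EIF4ENIF1 gave 4 negative calls in 4 rows, at a median log2 fold change of -2.0, and 0 positive ones, also at an unadjusted p under 0.05 of the DESeq2 test. The second EIF4EBP2 row had 2, 5, 1, 1 and 2 reads in the positive-side libraries and 11 on the negative side (-2.02 ± 0.58 in the authors' deposited table, adjusted p 0.00331). EIF4EBP3 had 0, 2, 1, 1 and 0 reads against 5, and EIF4ENIF1 2, 0, 0, 1 and 2 against 5. All 4 rows were curated and had a mean under 10. Of all 2440 sardine rows with reads on both sides and a mean under 10, 20.6% were called negative and 6.11% positive, at a median of -1.42. In the mackerel no row with these symbols was analysed here. Of the 5 sardine rows for start site selection and subunit joining only the predicted row of EIF5B, the joining GTPase, was called. It had 7, 8, 6, 6 and 7 reads against 0. Over all tested sardine rows 30.5% were called positive and 16.1% negative.

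**Figure D2:**
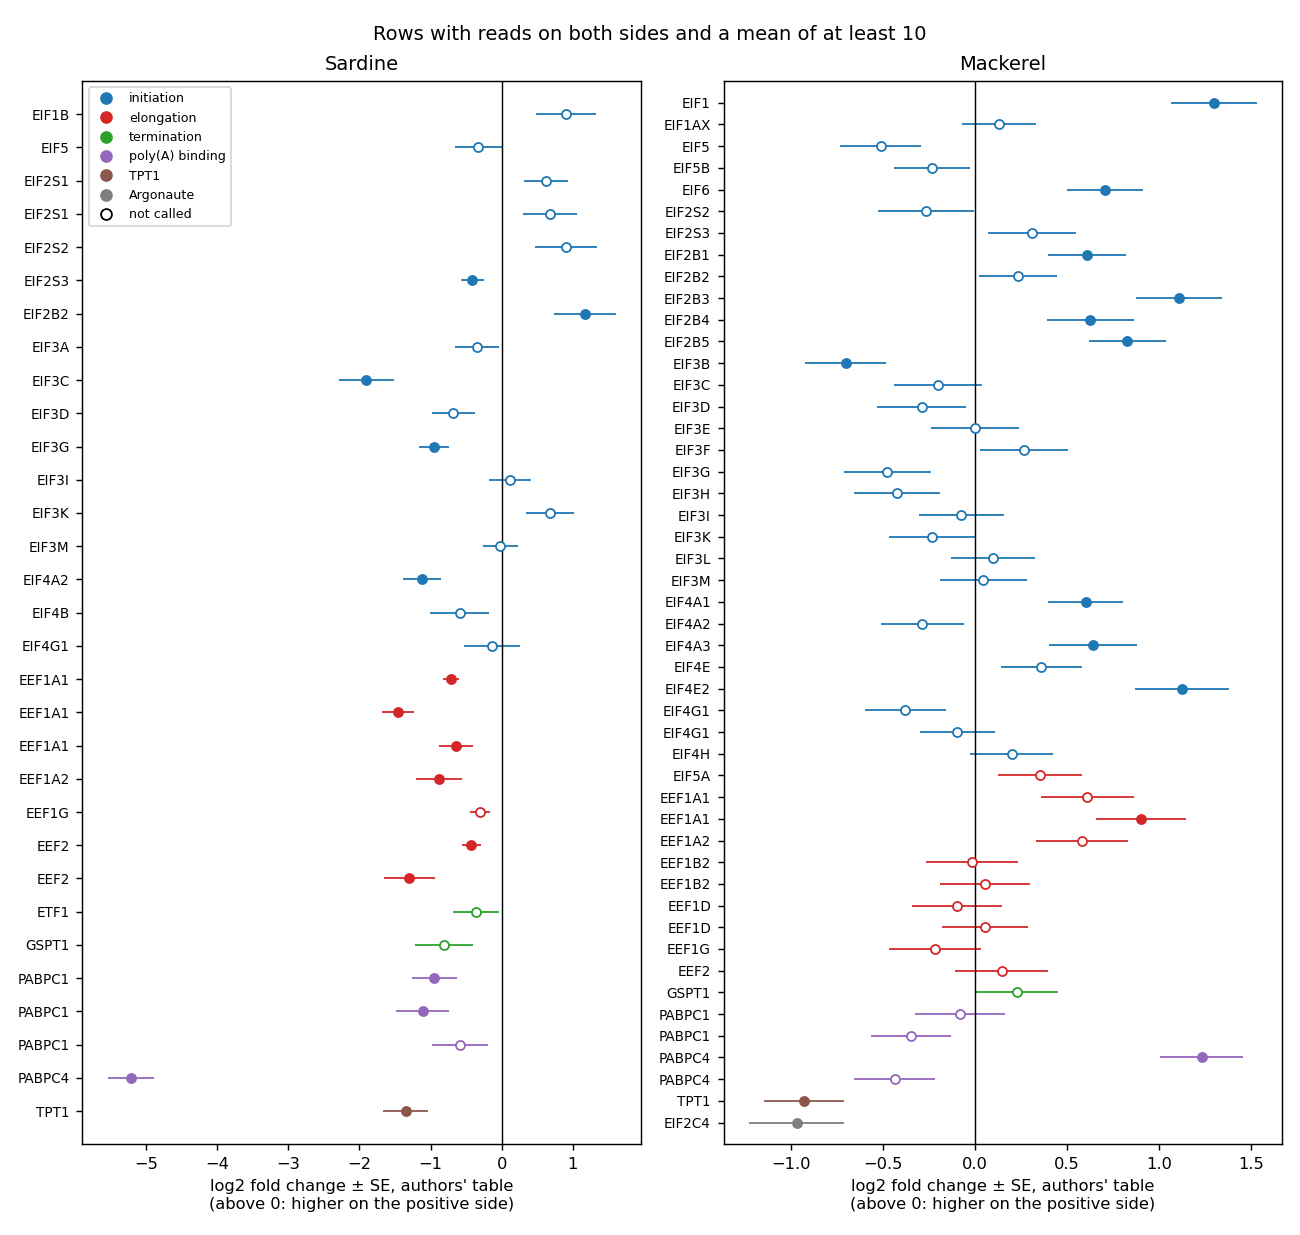
Log2 fold change ± SE in the authors' deposited tables (x axis) for every member row with reads on both sides and a mean of at least 10, in the sardine (left) and the mackerel (right), grouped by role. Filled points have an adjusted p under 0.05. The sardine panel holds 1 called row above 0, EIF2B2, and 14 below, and the mackerel panel 11 above and 3 below, on a narrower axis.

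Elongation factors held most of the reads of the members, in the mackerel 6144 of 8574 on the positive side and 4244 of 6152 on the other. In the sardine 6 of 14 elongation rows with an adjusted p were called positive and 7 negative, while the rows with reads on both sides gave 0 positive and 7 negative calls out of 8, at a median of -0.79. Over all tested sardine rows the shares called were 30.5% and 16.1%, and over those with reads on both sides 13.2% and 24.4%. With a mean of at least 10 as well they were 36.9% and 37.1%. The 7 negative calls include that of the kinase EEF2K, given below. EEF1A1, which delivers aminoacyl-tRNA to the ribosome, had the member row with the highest mean, at 2622 against 4278 (-0.71 ± 0.11 in the authors' deposited table, adjusted p 2.91e-08). A second EEF1A1 row stood at 596 against 1636 (-1.46 ± 0.23 in the authors' deposited table, adjusted p 1.54e-08) and another at 442 against 689 (-0.64 ± 0.24, 0.0278). The other 3 EEF1A1 rows were at 0 on the negative side, with 75.1, 6.41 and 3.27 on the positive side, and were called positive. Summed over the 6 rows EEF1A1 stood at 3745 for the positive side against 6603 for the negative. EEF1A2, the paralogue that mammals use in muscle and neurons, stood at 26.8 against 49.2 (-0.88 ± 0.32 in the authors' deposited table, adjusted p 0.0221). The paralogues are nearly identical in protein, so the split of reads among these 7 rows is uncertain.

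EEF2, which moves the ribosome along the mRNA, also had sardine rows called on both sides. Its main row stood at 683 against 920 (-0.43 ± 0.13 in the authors' deposited table, adjusted p 0.00734) and another at 8.28 against 20.4 (-1.30 ± 0.36, 0.00224). A predicted row stood at 169 against 0 (at least 63.7-fold higher) and a curated one at 68.2 against 0 (at least 25.7-fold higher). Summed over the 4 rows the levels were 929 and 940, a log2 ratio of -0.02. Whether the libraries of both sides were counted against 1 set of transcripts is not shown in the table, and the bounds assume it. EEF2K, the kinase that inhibits eEF2, had 1, 3, 0, 0 and 0 reads in the positive-side libraries and 8 on the negative side (-3.02 ± 0.85 in the authors' deposited table, adjusted p 0.00293).

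The eEF1B complex, which reloads eEF1A with GTP, had 3 sardine rows and no call. Its delta subunit EEF1D stood at 545 against 0 in a predicted and 389 against 0 in a curated row, at least 205-fold and at least 146-fold higher. Neither row has a raw or an adjusted p in the authors' deposited table. The single positive-side libraries of these rows were not recovered. Whether 1 library carries the difference, and whether an outlying library is why the raw p is missing, is not known. The gamma subunit EEF1G stood at 375 against 464 (-0.31 ± 0.14 in the authors' deposited table, adjusted p 0.0625) and passed only at an unadjusted p under 0.05 of the DESeq2 test. EEFSEC, the elongation factor for selenocysteine, had 1, 2, 2, 0 and 2 reads against 0. EIF5A, the hypusine-bearing factor that helps ribosomes past stalls, was not analysed here in the sardine.

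**Figure D3:**
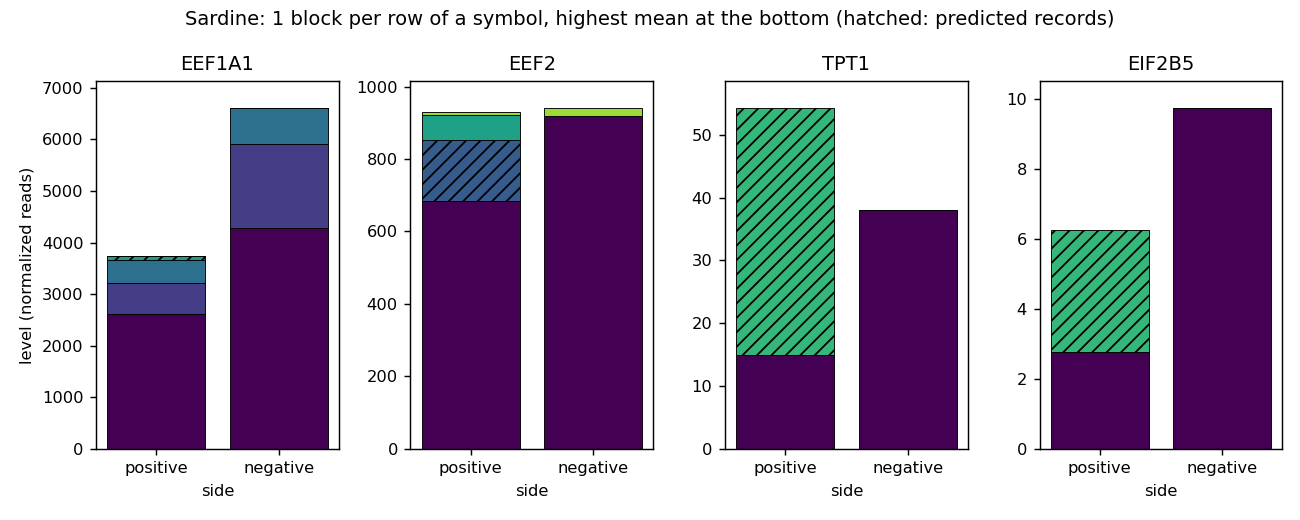
Sardine levels (normalized reads) on the positive and the negative side for the 4 symbols with rows called on both sides. Each block is 1 row of the symbol, with the highest mean at the bottom and predicted records hatched. For EEF2 the stacks end at 929 and 940, for EEF1A1 at 3745 and 6603, for TPT1 at 54.2 and 38.0 and for EIF2B5 at 6.25 and 9.74.

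Termination factors gave no call in the sardine. ETF1 (eRF1), which reads the stop codon, stood at 26.5 against 33.9 (-0.36 ± 0.32 in the authors' deposited table, adjusted p 0.316) and at 6.79 against 8.11 (-0.26 ± 0.62, 0.72). GSPT1 (eRF3), its GTPase partner, stood at 8.19 against 14.4 (-0.81 ± 0.41 in the authors' deposited table, adjusted p 0.0877), which was the single termination row with an unadjusted p under 0.05 of the DESeq2 test. The second GSPT1 row had 5, 3, 4, 2 and 3 reads in the positive-side libraries and 2 on the negative side (1.06 ± 0.71 in the authors' deposited table, adjusted p 0.173). The 4 rows had reads on both sides and a median of -0.31, against -0.35 for initiation and -0.79 for elongation rows with reads on both sides. The initiation rows include the 4 rows of repressors and the elongation rows the kinase EEF2K, all of them called negative. A difference between the 3 classes was not tested.

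Poly(A) binding proteins held the largest sardine difference of the members with reads on both sides. PABPC4, a cytoplasmic poly(A) binding protein first known from activated T cells, stood at 8.73 for the positive side against 323 for the negative, the latter from about 365 reads. The authors' deposited table puts its log2 fold change at -5.21 ± 0.32, with an adjusted p of 1.01e-55. PABPC1, the main cytoplasmic form, stood at 74.2 against 143 (-0.94 ± 0.32 in the authors' deposited table, adjusted p 0.0124) and at 58.3 against 126 (-1.11 ± 0.37, 0.0121) in its called rows. The remaining PABPC1 row stood at 10.8 against 16.2 and was not called. All 4 rows were curated and lower on the positive side, and their summed level was 152 against 608, of which PABPC4 made up the greater part. Without PABPC4 the 3 PABPC1 rows summed to 143 against 285, a log2 ratio of -0.99.

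TPT1 is the translationally controlled tumour protein, an abundant protein whose mRNA is regulated with the translation machinery. Its curated sardine row stood at 14.9 against 38.0 (-1.35 ± 0.31 in the authors' deposited table, adjusted p 2.78e-04). Its predicted row stood at 39.3 against 0, at least 14.8-fold higher. The sum of both rows was 54.2 against 38.0.

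In the mackerel the authors' deposited fold changes spanned a narrower range, from -1.32 to 1.54, and the abundant EEF1A rows lay higher on the positive side. On rows of few reads they could be much smaller than the recovered reads give. PABPN1 had a log2 ratio of normalized reads of 2.02 but 0.83 ± 0.39 in the authors' deposited table, and EIF1AD -1.89 but -0.88 ± 0.40. The narrower range is therefore not a measure of smaller differences than in the sardine. Of 73 member rows with an adjusted p, 13 were called positive in the authors' deposited table, against 14.1% of all tested rows, and 6 negative, against 10.8%. The median log2 fold change was 0.04, as over all mackerel rows. The exact two-sided binomial test of the recovered reads, adjusted over all rows, called 7 member rows positive, where 2.07% of all rows were called, and 0 negative, where 2% were. A mean of at least 10 was reached by 48 of the 75 member rows, against 1756 of all 9191. Among these, the exact test called 7 positive (14.6%), against 9.85% of all 1756 such rows, and 0 negative, against 10% of them. By the authors' deposited table, of the 48 rows 22.9% were positive and 6.25% negative, against 25.7% and 15.4% of all such rows. At an unadjusted p under 0.05 the exact test had 12 positive and 4 negative member rows and the DESeq2 test 17 and 13. Members took 2.28% of the summed positive-side level and 1.85% of that of the negative side. The exact test compares 2 totals of reads, not 2 sets of fish, and its intervals cover counting error only.

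**Figure D4:**
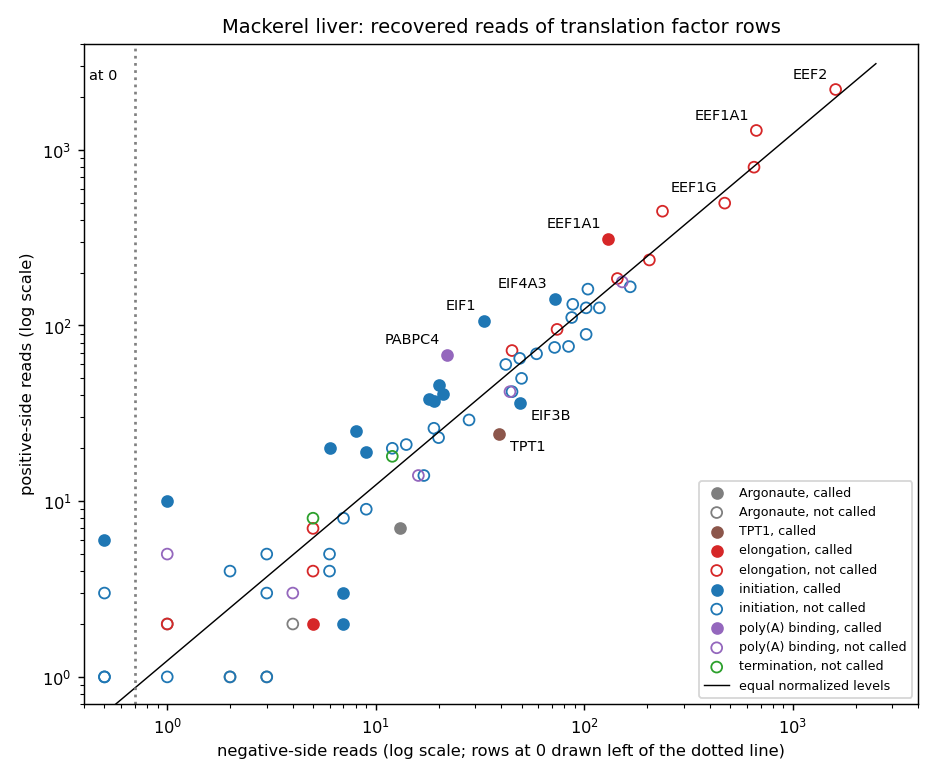
Recovered reads of each mackerel member row on the negative side (x axis) and the positive side (y axis), on log scales. Filled circles passed the authors' test at an adjusted p under 0.05, colours give the class, and the line marks equal normalized levels. EIF1 (106 against 33) and PABPC4 (68 against 22) stand above the line and TPT1 (24 against 39) below it.

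Initiation factors gave 11 positive and 3 negative calls in 45 tested mackerel rows. Of all tested mackerel rows 14.1% were called positive and 10.8% negative, and of those with a mean of at least 10, 25.7% and 15.4%. That mean was reached by 31 of the 47 initiation rows. EIF1, which guards the fidelity of start codon selection, had 106 reads for the positive side against 33 for the negative. It had the smallest adjusted p of the members (1.30 ± 0.23 in the authors' deposited table, adjusted p 8.76e-07), with a normalized ratio of 2.60 and an exact 95% interval of 1.74 to 3.97. EIF6, which keeps the large ribosomal subunit from joining early, had 38 reads against 18 (0.71 ± 0.21 in the authors' deposited table, adjusted p 0.00496) and a ratio of 1.71 (0.951 to 3.18). EIF5, which activates the GTPase of eIF2, had 14 against 17 and was not called.

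The eIF2B complex lay higher on the positive side in the mackerel, with 4 of 5 rows called positive and 0 negative by the DESeq2 test and no subunit below 0. All 5 rows had a mean of at least 10, where 25.7% of all mackerel rows were called positive. In all its rows had 152 reads against 72. EIF2B3, the gamma subunit, had 25 reads against 8 (1.11 ± 0.23 in the authors' deposited table, adjusted p 4.71e-05), EIF2B5 46 against 20 (0.83 ± 0.21, 0.00106), EIF2B1 41 against 21 (0.61 ± 0.21, 0.0199) and EIF2B4 19 against 9 (0.63 ± 0.23, 0.0346). EIF2B2 had 21 reads against 14 and was not called. By the exact test 0 of the 5 rows passed after adjustment and 2 at an unadjusted p under 0.05, those of EIF2B3 and EIF2B5. The eIF2 subunits EIF2S2 (9 against 9 reads) and EIF2S3 (161 against 104) were not called.

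The eIF3 subunits gave 0 positive and 2 negative calls in 14 tested mackerel rows, 3 being negative and 0 positive at an unadjusted p of the DESeq2 test. Over all tested mackerel rows the shares called were 14.1% and 10.8%, and over those with a mean of at least 10, 25.7% and 15.4%. EIF3B had 36 reads against 49 (-0.70 ± 0.22 in the authors' deposited table, adjusted p 0.0103) and a ratio of 0.594 (0.375 to 0.933). EIF3A had 3 against 7 (-1.04 ± 0.33 in the authors' deposited table, adjusted p 0.0109) and a ratio of 0.347 (0.0578 to 1.52). EIF3D, the initiation row with the highest mean, had 166 reads on each side and a ratio of 0.809 (0.648 to 1.01). By the exact test 0 eIF3 rows passed after adjustment and 2, both negative, at an unadjusted p under 0.05, and the summed reads of 1088 against 996 gave a log2 ratio of -0.18.

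The cap-binding complex and its partners gave 5 positive calls and 1 negative in 17 tested mackerel rows. Over all tested mackerel rows the shares called were 14.1% and 10.8%, and over those with a mean of at least 10, 25.7% and 15.4%. That mean was reached by 8 of the 18 rows of this group. By the exact test 1 row of the group passed after adjustment. EIF4A3, the helicase of the exon junction complex, was counted in this group by its symbol only. It had 142 reads against 72 (0.64 ± 0.24 in the authors' deposited table, adjusted p 0.0327) with a ratio of 1.60 (1.19 to 2.15) and also passed the exact test. EIF4A1 had 37 against 19 (0.60 ± 0.20 in the authors' deposited table, adjusted p 0.0184). EIF4A2 had 50 reads on each side in its main row, which was not called, and 10 against 1 in a second row that was (1.54 ± 0.36, 3.18e-04 in the authors' deposited table). EIF4E2 had 20 against 6 (1.12 ± 0.25 in the authors' deposited table, adjusted p 1.76e-04). EIF4E had 20 against 12 in its main row and 6 against 0 in the called row, where the lower exact 95% limit of the ratio was 0.952. The negative call was EIF4E3, a distant relative of eIF4E, with 2 reads against 7.

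Symbols EIF2C1 to EIF2C4 begin with EIF but are older names of the Argonaute proteins, which carry microRNAs and do not act in initiation. Their 5 mackerel rows were kept apart, a choice made after the data were seen. EIF2C4 had 7 reads against 13 (-0.97 ± 0.26 in the authors' deposited table, adjusted p 0.00205) and was the only one called. With them, initiation counted 11 positive and 4 negative calls in 50 tested rows, against 14.1% and 10.8% of all tested mackerel rows.

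Among the mackerel elongation factors 1 of 14 rows was called positive and 1 negative in the authors' deposited table, while the exact test called 4 positive and 0 negative. All 4 were abundant rows. Of all mackerel rows with a mean of at least 10 the exact test called 9.85% positive and 10% negative. EEF1A1 had 1288 reads against 668 (0.61 ± 0.25 in the authors' deposited table, adjusted p 0.0585) with a ratio of 1.56 (1.42 to 1.71), and its other row had 310 against 130 (0.90 ± 0.24, adjusted p 0.00231) with a ratio of 1.93 (1.57 to 2.39). EEF1A2 had 447 against 237 (0.58 ± 0.25 in the authors' deposited table, adjusted p 0.0627) with a ratio of 1.53 (1.30 to 1.79) and 2 against 5 in a second, called row. EEF2, the row with the highest mean, had 2203 reads against 1603 and a ratio of 1.11 (1.04 to 1.19), which passed the exact test (adjusted p 0.0338) but not that of the authors (0.15 ± 0.25 in the authors' deposited table, adjusted p 0.691). The SE of these abundant rows was near 0.25 in the authors' fit, while counting error alone gave the narrow intervals. On rows of few reads the exact intervals were instead wider than the SE implies. The called EEF1A2 row of 2 reads against 5 had an SE of 0.36 and a ratio of 0.324 (0.0308 to 1.98). EIF2B3 had an SE of 0.23 and a ratio of 2.53 (1.11 to 6.48).

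The eEF1B subunits lay near equal levels in the mackerel. EEF1B2, the beta subunit, had 796 reads against 651 (ratio 0.989, 0.891 to 1.10) and 185 against 144 (1.04, 0.831 to 1.30). EEF1D had 236 against 205 (0.931, 0.769 to 1.13) and EEF1G 497 against 471 (0.854, 0.751 to 0.970). None of the 5 rows was called by either test after adjustment, 0 passed an unadjusted p of the DESeq2 test, and 1, EEF1G, passed that of the exact test. Summed reads of the eEF1A rows were 2047 against 1040 and those of the eEF1B rows 1809 against 1545, log2 ratios of 0.67 and -0.08. EIF5A had 72 reads against 45 (0.35 ± 0.23 in the authors' deposited table, adjusted p 0.255).

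Of the termination factors GSPT1 was analysed in the mackerel, with 18 reads against 12 (0.23 ± 0.22 in the authors' deposited table, adjusted p 0.506) and 8 against 5 (0.22 ± 0.30, 0.664). Their ratios of 1.21 (0.553 to 2.76) and 1.29 (0.373 to 5.03) had wide intervals that include 1. Neither row passed an unadjusted p of either test. ETF1 was not analysed here in the mackerel.

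PABPC4 was the poly(A) binding protein with a called row in the mackerel. One row had 68 reads for the positive side against 22 for the negative (1.23 ± 0.22 in the authors' deposited table, adjusted p 1.35e-06), with a ratio of 2.50 (1.53 to 4.25), and passed the exact test as well. The other PABPC4 row had 14 against 16 and was not called. PABPC1 had 177 reads against 152 (-0.08 ± 0.24 in the authors' deposited table, adjusted p 0.838), 42 against 44 and 3 against 4, none of them called. PABPN1, the nuclear form, had 5 against 1. TPT1 had 24 reads against 39 (-0.93 ± 0.22 in the authors' deposited table, adjusted p 3.05e-04) and a ratio of 0.498 (0.286 to 0.849), which did not pass the exact test after adjustment.

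Both species had 11 member symbols with a called row, of the 42 shared ones (26.2%), against 511 of all 3449 shared symbols (14.8%). Because symbols have several rows, a symbol can count on both sides. Positive rows in both species were found for 6 symbols (14.3%, against 6.93% of all shared symbols). Of these only EIF4E had a called positive sardine row with reads on both sides. EEF1A1 and EIF2B5 summed lower on the sardine positive side (3745 against 6603 and 6.25 against 9.74). Negative rows in both were found for 2, EEF1A2 and TPT1 (4.76%, against 1.71%). The negative mackerel row of EEF1A2 had 2 reads against 5, while its main row had 447 against 237. A negative sardine row beside a positive mackerel row was found for 4, EEF1A1, EIF2B5, EIF4A2 and PABPC4 (9.52%, against 2.03%), and the reverse for 2, EIF3B and TPT1 (4.76%, against 5.39%). For EIF4A2 the positive mackerel row had 10 reads against 1, while its main row had 50 on each side. A mean of at least 10 was also more frequent among member rows, 43 of 75 against 978 of 6716 in the sardine, and these shares are not matched for depth. PABPC4 stood at -5.21 ± 0.32 in the sardine and 1.23 ± 0.22 in the mackerel in the authors' deposited tables. Since the numerator of neither table is known and no test between species was possible, these values stand side by side only.

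**Figure D5:**
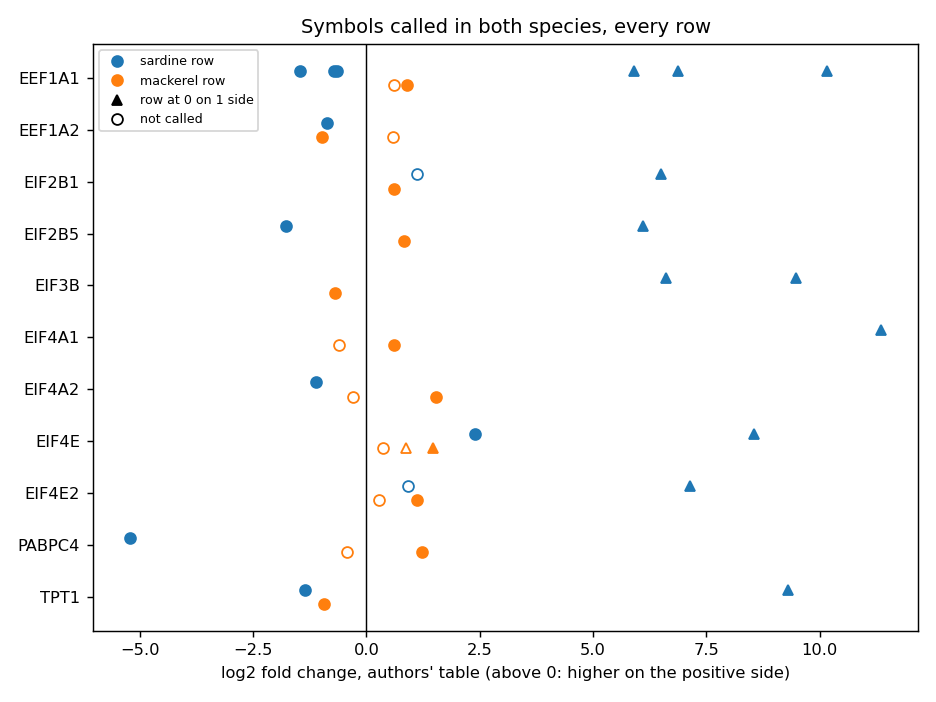
Log2 fold change in the authors' deposited tables (x axis) of every row of the 11 symbols called in both species, sardine rows in blue and mackerel rows in orange. Filled marks have an adjusted p under 0.05 and triangles mark rows at 0 on 1 side. Sardine triangles lie far right at fitted values that depend on the authors' model, and PABPC4 of the sardine lies far left at -5.21.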

How the data were processed

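Liver RNA of 10 sardines and 10 mackerels (5 exposed and 5 control fish each) was sequenced, and the authors compared the groups with DESeq2. The deposited means did not show 10 separate libraries in either species, as given below. Per the file headers, each deposited row gives a mean normalized count (signal), a log2 fold change and its SE (log2), a Wald statistic (score) and a raw and an adjusted p-value. Named in the submitters' processing notes are CASAVA 1.8, DESeq2 and GRCz10, a zebrafish build. The aligner, counter, filters and DESeq2 version that the authors used were not given in the sources used here. Deposited sardine rows are named by zebrafish RefSeq transcripts, curated or predicted, and mackerel rows by fugu gene models, both with human symbols. Without lengths, levels were compared only within a row or symbol.

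From the deposited means whole reads were recovered with Python 3.11.15, NumPy 2.4.6, SciPy 1.17.1 and pandas 2.3.3. A mackerel mean equalled 0.455 times the positive-side reads plus 0.563 times the negative-side reads plus 1.66. All 9191 rows had 1 solution (largest residual 3.47e-06), against 0.109% of means shifted off the grid. In sardine all 5460 rows whose mean was 7 or less had 1 solution in 5 positive-side numbers and 1 negative-side number, against 0.0183% of shifted means. Giving both sides equal weight, the log2 ratio of the recovered reads deviated from the deposited fold change by a median of -0.02. For higher means the deposited mean and fold change gave an estimate of the negative-side reads, with errors of -4.00% to 3.52% on solved rows of at least 5 reads. The solved sardine rows held 11418, 12857, 8191, 7006 and 7285 reads in the positive-side libraries and 9376 on the negative side. Simulated data with 9191 mackerel and 4717 sardine rows gave back 100% of the reads. The exact binomial test against the expected positive-side share of 55.3%, with Benjamini-Hochberg adjustment over all rows, called 21 of 200 simulated mackerel rows changed 4-fold, 14 of the 14 with at least 50 reads, and 0 unchanged ones. The simulated reads held counting error only, so the 0 does not measure false calls where fish differ. The reads are PCR products without molecular identifiers and not independent molecules. Intervals (95%, exact) and floors (3 reads) cover counting error only.

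Members and lists were chosen with earlier results of these data known. Classes followed the symbols, EIF for initiation (apart from EIF5A and the Argonaute symbols) and EEF for elongation, whatever else a protein does. Named were the called member rows with a mean of at least 10 (up to 15 per species by adjusted p), the row with the highest mean of each class, symbols called in both species and 10 core genes. Other genes were chosen after their values were seen. Alternatives were another threshold, readjustment, a minimum mean, 1 row per symbol, rows with reads on both sides, curated records and the exact test. No values per fish were used, so no replicate could be left out and no own fit was made.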

Additional observations from a re-analysis of the deposited data

Results flagged for a closer look

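In 19 sardine member rows with at least 10 reads over the 5 positive-side libraries, the distance of the highest or lowest library from the others was measured as a share of the whole range after scaling for depth. It was above Dixon's 95% limit in 4 rows, and for normally distributed values chance alone gives about 1 in 20. These are low whole read numbers, for which the chance rate is not known, so the 4 rows are not shown to exceed it. The libraries could not be matched to single fish. The predicted EIF4G1 row had 9, 12, 7, 6 and 24 reads, a share of 0.882, and the predicted EIF4G3 row 7, 6, 3, 2 and 18, a share of 0.864, both with the fifth library highest. The lowest-mean EEF1A1 row had 3, 1, 2, 8 and 0 reads and a share of 0.752. A low EIF4G2 row had 2, 3, 2, 2 and 2 reads and a share of 0.79, a distance of about 1 read.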

How the results depend on the processing

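No paired analysis was possible because fish carry no shared replicate numbers in the labels, and no values per fish were used, so leaving out a replicate was not possible either. The sardine positive calls depended most on which rows were counted. Of 26, 11 were left with a mean of at least 10, 11 with 1 row per symbol, 11 in curated records, 2 with reads on both sides and 1 with both reads on both sides and a mean of at least 10, the last chosen after the data were seen. The 20 sardine negative calls became 12 at an adjusted p under 0.01 and lay between 14 and 20 under the other choices. The 13 mackerel positive calls became 7 under the exact test and lay between 9 and 12 otherwise. The 6 mackerel negative calls became 3 at an adjusted p under 0.01, 3 with a mean of at least 10, with or without reads on both sides, and 0 under the exact test, by which 4 passed at an unadjusted p under 0.05. Of the 14 called mackerel rows with a mean of at least 10, 10 lost the call under the exact test, 5 at 0.01 and 1 when adjusted over all rows. Of the 25 such sardine rows 6 lost it at 0.01 and 0 when adjusted over all rows. The balance of the sardine calls turned with the rows counted, from 26 positive and 20 negative (median log2 fold change 0.62) to 2 and 20 with reads on both sides (-0.59), and for initiation factors from 19 and 9 to 2 and 9. A median of 4 reads per mackerel row and a single number for the sardine negative side limit what could be detected.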

Other observations

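Related genes were described from lists beside the members. Cytosolic aminoacyl-tRNA synthetases, which charge tRNAs with amino acids, had 10 positive calls and 1 negative in 16 sardine rows, or 4 and 1 among the 8 rows with reads on both sides. These sardine rows include AIMP1, a partner protein of the synthetases and not itself one, which was not called. Of all tested sardine rows 30.5% were called positive and 16.1% negative, and of those with reads on both sides 13.2% and 24.4%. In the mackerel they had 7 and 2 in 19 rows, and 2 positive and 0 negative passed the exact test after adjustment. Of all tested mackerel rows the DESeq2 test called 14.1% positive and 10.8% negative, and the exact test 2.07% and 2%. These shares are not matched for depth. The seryl enzyme SARS stood at 1.63 ± 0.23 (adjusted p 2.32e-10) in the mackerel and 1.23 ± 0.35 (adjusted p 0.00308) in the sardine in the authors' deposited tables. The histidyl enzyme HARS stood at 0.88 ± 0.23 (adjusted p 0.00155) in the mackerel and -1.55 ± 0.22 (adjusted p 1.06e-10) in the sardine by the same tables of the authors.

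Recycling factors, rescue factors and regulators of translation had 10 positive calls and 2 negative in 26 sardine rows and 5 and 2 in 28 mackerel rows. Over all tested rows the shares were 30.5% and 16.1% in the sardine and 14.1% and 10.8% in the mackerel. Among the 13 sardine rows with reads on both sides, 1 was called positive and 2 negative, against 13.2% and 24.4% of all such rows. By the exact test of the mackerel reads 0 rows passed after adjustment, and 3 positive and 2 negative ones did at an unadjusted p under 0.05. In the mackerel PDCD4, which blocks the eIF4A helicase, stood at 1.35 ± 0.23 and DENR, which acts in reinitiation, at 0.83 ± 0.21 in the authors' deposited table. MKNK1, the kinase that phosphorylates eIF4E, stood at -1.19 ± 0.22 there. Mitochondrial translation factors gave 0 calls in 6 sardine rows by the DESeq2 test. In the mackerel TSFM, the mitochondrial exchange factor for EF-Tu, was called in the authors' deposited table at 2.02 ± 0.29 (adjusted p 2.5e-10), 1 of 3 tested rows.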
